A study of Homo sapiens with 12 samples.

Results

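PC14CDDP is a cisplatin-resistant human lung adenocarcinoma line whose parental line is PC14, and the comparison asked which messenger RNAs differ between the resistant line and its parent. Every array of PC14CDDP and every array of PC14 was used, 4 for each line, which is 8 of the 12 arrays of the series, the other 4 being of A549, an unrelated lung adenocarcinoma line. All cultures of both lines were transfected at 25 nM, so that none is untransfected. In each line, 1 culture received premiR-197, a synthetic precursor of the microRNA miR-197, 1 received its control AllStar-NC, 1 received LNA-miR-197, a locked nucleic acid that blocks the microRNA, and 1 received its control LNA-miR-NC. The labels do not describe cisplatin in the culture medium or how resistance was obtained, PC14CDDP is a single resistant line supplied by another laboratory, and no transfection was repeated within a line. The p-values below therefore measure the spread between cultures of 1 resistant and 1 parental line, not between independent resistant lines. Values for each line are given in the order premiR-197, AllStar-NC, LNA-miR-197 and LNA-miR-NC.

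Cisplatin enters cells in part through the copper transporter SLC31A1 and volume-regulated anion channels of the LRRC8 family, is bound by glutathione and metallothioneins, and kills by crosslinking DNA. Intrastrand adducts are removed by nucleotide excision repair, in which ERCC1 forms part of an incision nuclease, and interstrand crosslinks by the Fanconi pathway together with homologous recombination. Lesions that remain activate cell cycle checkpoints and mitochondrial apoptosis, which proteins of the BCL2 family control. Resistant lines are also often described in terms of the epithelial-mesenchymal transition, in which cells give up junction proteins such as E-cadherin and claudins for N-cadherin under regulators of the SNAI, TWIST and ZEB families.

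The microRNA that was supplied or blocked on some of the arrays of each line, miR-197, is printed because the genes around its locus turn up again in the results below. RefSeq places it on the plus strand of GRCh38.p14 at chr1:109598940-109598961, and capitals mark its seed, bases 2 to 8.
hsa-miR-197-3p: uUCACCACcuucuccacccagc

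Levels are log2 processed signals from which the array's own 75th percentile was taken off, so that a level of 0 equals the 75th percentile, and a difference is PC14CDDP minus PC14 on that log2 scale. On the PC14 arrays 59.9% to 63.1% of probes passed the scanner test for well above background, and on the PC14CDDP arrays 55.8% to 59.5%. PC14 lay in row 1 and PC14CDDP in row 2 of 1 slide, with the same transfection in the same column, so the slide row and the line cannot be told apart. Of 24839 genes tested, limma called 6145 higher (24.7%) and 5852 lower (23.6%) in PC14CDDP at an adjusted p under 0.05, together 11997 (48.3%). Because so many genes were called, groups of genes are described below mainly by members that were called and differed at least 2-fold, which over all genes were 1596 higher (6.43%) and 2575 lower (10.4%), together 4171 (16.8%). For scale, A549 differed from PC14 at least 2-fold in 8025 genes (32.3%), and the SD of the difference over all genes was 1.07 between PC14CDDP and PC14 and 1.76 between A549 and PC14. The median difference over all genes was 0.03. With normexp background correction, which raises dim signals, 2156 genes rather than 4171 were called and at least 2-fold different, so a count of 2-fold genes below is followed by its normexp value in the lists described at length where the latter was over 1.5 times smaller. A difference had the same sign in all 4 pairs of like transfection in 15231 genes (61.3%). In single genes, the LNA-miR-197 culture was the array that most often stood apart from the other 3 of its line, in 24 of the 39 such sets found among 534. Without the LNA-miR-197 arrays of PC14, PC14CDDP and A549, 11085 genes were called, 4106 of them at least 2-fold different. Where an array probe of the same gene gave another direction, or a call was lost when the arrays of 1 transfection were left out of PC14, PC14CDDP and A549, this is said beside the gene.

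Both lines were checked against epithelial, lung and other cell type markers. The keratins of simple epithelia were measured on every array, and apart from KRT19, which fell by 2.13, were not called with their brightest probes. Mean levels in PC14 and PC14CDDP were 7.42 and 7.60 for KRT18, 3.44 and 3.23 for KRT8 and 2.51 and 2.53 for KRT7. Another KRT8 probe was called lower (-0.45), and a further one, at -0.22, was not called. E-cadherin (CDH1) and EPCAM, the other epithelial markers, were near background in both lines, well above it on 2 and 3 PC14 arrays and on 0 PC14CDDP arrays. The lung transcription factor NKX2-1 was low in both, at -3.74 ± 0.19 (SD, n = 4) in PC14 and -4.37 ± 0.05 in PC14CDDP. Of 19 lung lineage genes tested, 0 were at least 2-fold higher and 3 at least 2-fold lower, namely the lysosomal protein LAMP3, the lipid transporter ABCA3 and the transcription factor FOXA2. The common leukocyte gene PTPRC had mean levels of -3.87 in PC14 and -3.69 in PC14CDDP and was not called, nor was another of its probes (-0.09), and of all 8 leukocyte markers tested 1 was at least 2-fold higher and 1 at least 2-fold lower. The same counts, 1 and 1, held for the 4 squamous markers tested. Of the neuroendocrine markers, NEUROD1 was at least 7.46-fold higher in PC14CDDP and CHGB differed by 2.73, while CHGA differed by -2.27 and SYP was at least 2.33-fold lower.

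**Figure D1:**
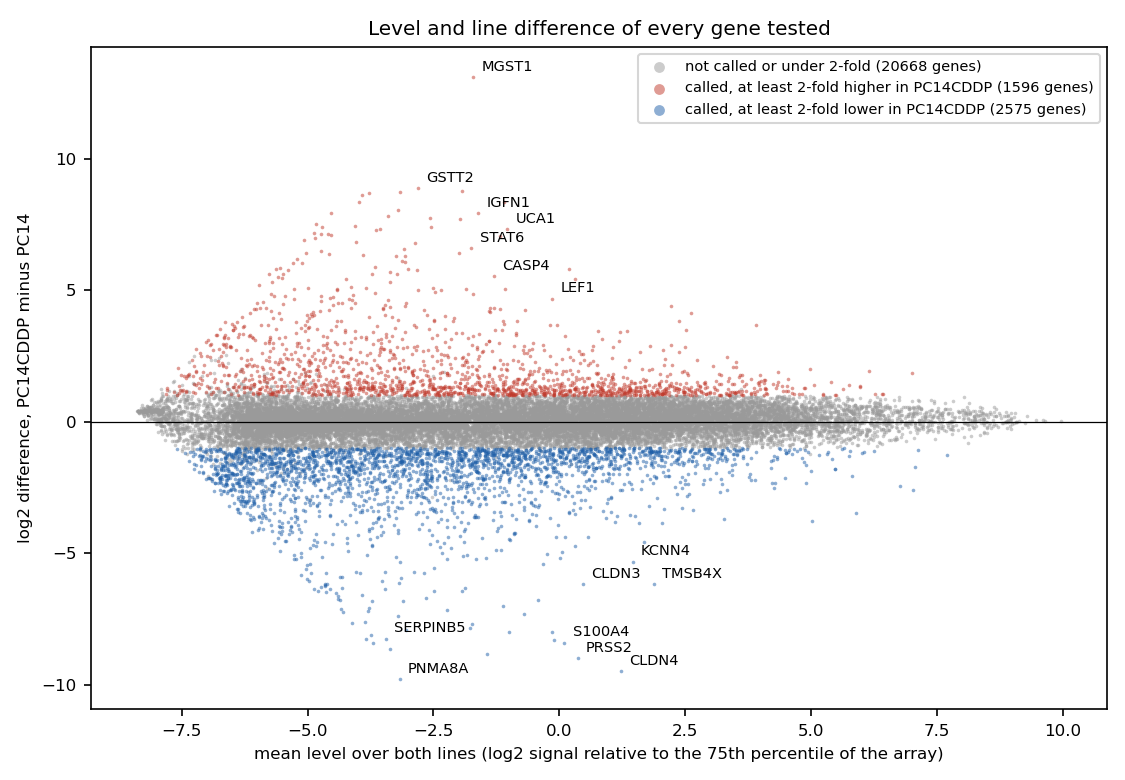
Difference between the lines (vertical axis, log2, PC14CDDP minus PC14) against the mean level over both lines (horizontal axis, log2 signal relative to the 75th percentile) for the 24839 genes tested, with genes that were called and at least 2-fold different in colour. The 1596 red and 2575 blue points show that the largest differences, such as MGST1 at 13.10 and CLDN4 at -9.50, were far outside the bulk, whose SD was 1.07.

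The largest rises among genes measured well above background on all 8 arrays included signalling, transcription and noncoding genes. IGFN1, an immunoglobulin-domain gene best known from muscle, had levels of -5.63, -5.62, -5.37 and -5.71 in PC14 and of 2.65, 2.43, 1.71 and 2.61 in PC14CDDP. UCA1, a long noncoding RNA first described in bladder cancer, had levels of -5.62, -5.26, -3.42 and -4.48 in PC14 and of 2.30, 3.34, 1.89 and 2.96 in PC14CDDP. For both genes the lowest PC14CDDP array was over 5 log2 units above the highest PC14 array, and the fold differences were 245 and 159 (adjusted p = 3e-07 and 1.3e-05). STAT6, the transcription factor of interleukin 4 signalling, rose by 6.61 from a low level on all PC14 arrays (97.6-fold, SE 0.14). CASP4, an inflammatory caspase that senses bacterial lipopolysaccharide, rose by 5.52. The zinc finger gene ZNF462, the reductase CYB5R2, the corepressor TLE4, the WNT transcription factor LEF1, the platelet receptor PEAR1, VEPH1 and the noncoding genes HSD52 and SERTAD4-AS1 completed the 12 largest rises, with differences between 4.52 and 7.70.

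The largest falls among genes measured on all 8 arrays included claudins, trypsinogens and a morphogen. CLDN4, a tight junction claudin, had levels of 5.80, 6.18, 5.90 and 6.03 in PC14, among the brighter genes of the array, and of -4.00, -3.70, -3.55 and -2.83 in PC14CDDP. The groups were separated by more than 8 log2 units and the mean difference was 722-fold (adjusted p = 1.5e-07). A dimmer CLDN4 probe, measured on all PC14 arrays and on 0 PC14CDDP arrays, differed by -0.41 and did not pass the test. S100A4, a calcium-binding protein often used as a mesenchymal and metastasis marker, had levels of 4.05, 4.83, 3.75 and 4.58 in PC14 and of -4.39, -3.40, -4.54 and -4.07 in PC14CDDP (339-fold lower). CLDN3, another claudin, fell by 6.19, TMSB4X, an actin-sequestering thymosin, by 6.17, and BMP7, a bone morphogenetic protein, by 5.43. The trypsinogen genes PRSS2 and PRSS3 fell by 8.99 and 7.99, but they are near-identical copies whose probes may bind either transcript. The adrenergic receptor ADRA1B, the homeobox gene TLX2, the heparan sulfate sulfatase SULF2, the potassium channel KCNN4 and the lipid transfer protein PITPNC1 completed the 12 largest falls, with differences between -7.31 and -5.23.

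Some genes were measured in only one of the lines. In 125 genes the probe was well above background on all 4 PC14CDDP arrays and on 0 PC14 arrays, and in 439 genes the reverse held. Against the background limit, MGST1, a membrane-bound glutathione transferase and peroxidase, was at least 2189-fold higher in PC14CDDP. Its levels were -8.13, -8.11, -8.54 and -8.24 in PC14 and 4.88, 5.08, 4.52 and 4.90 in PC14CDDP. In A549 its mean level was 6.10, so it was the PC14 arrays that lacked the signal which both other lines had. GSTT2, a cytosolic theta-class transferase with a near-identical neighbouring copy, was at least 224-fold higher, TMEM200A at least 173-fold, the channel regulator NALF1 at least 133-fold, the exchange factor ARHGEF5 at least 113-fold and the ubiquitin ligase MARCHF4 at least 108-fold. On the other side, PNMA8A was at least 190-fold lower in PC14CDDP, the mitochondrial protein APOOL at least 111-fold, the serpin SERPINB5 (maspin) at least 91.9-fold, the matrix protein FBLN2 at least 81.6-fold and the calcium-binding protein CALB2 and the secreted protein TAFA5 each at least 71.2-fold.

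**Figure D2:**
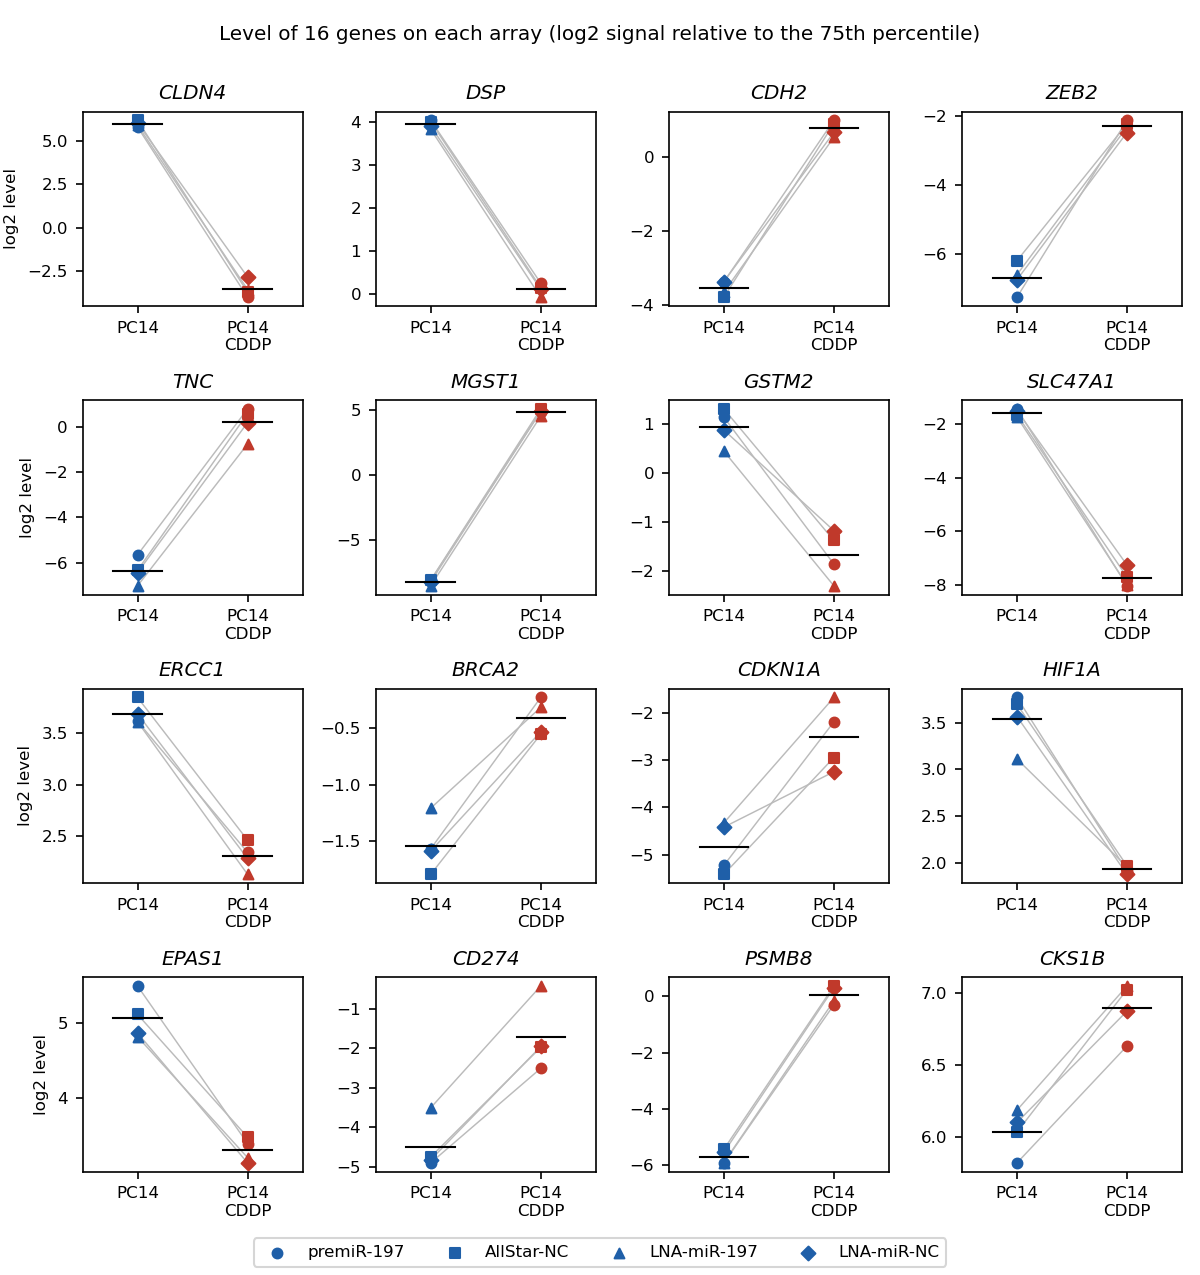
Level of 16 genes on each of the 8 arrays (vertical axes, log2 signal relative to the 75th percentile, with a different range in each panel), 4 marker shapes for the 4 transfections, grey lines joining arrays of the same transfection and black bars for the mean of each line. In all 16 panels every PC14CDDP array lies on the same side of every PC14 array, from CKS1B, with a difference of 0.86, to MGST1, with 13.10.

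Genes of platinum and copper transport differed on the uptake and the efflux side. Of 9 uptake genes 3 were called higher and 3 lower, and of 8 copper chaperones and exporters 0 higher and 5 lower. Over all genes 24.7% were called higher and 23.6% lower. SLC31A1, the copper importer that carries part of cisplatin into cells, was not called, with levels of -0.09, 0.11, 0.02 and 0.20 in PC14 and of -0.01, 0.20, -0.29 and 0.23 in PC14CDDP. The groups overlapped and the difference was -0.03 ± 0.13 (SE, adjusted p = 0.86). Of the anion channel subunits, LRRC8D, which favours platinum uptake, fell by 0.97, LRRC8B and LRRC8E fell by 0.57 and 0.55, while LRRC8A and LRRC8C differed by 0.39 and 0.53. The LRRC8A call was lost without the AllStar-NC arrays (adjusted p = 0.0512) and the LRRC8C call without those of any of the other 3 transfections (adjusted p up to 0.149), and another LRRC8C probe differed by -0.44. Both copper pumping ATPases, which have been tied to platinum export, fell, ATP7B 3.06-fold and ATP7A 1.68-fold, the latter with an adjusted p of 0.0512 without the AllStar-NC arrays. SLC47A1 (MATE1), a proton-coupled exporter of cations, had levels of -1.43, -1.64, -1.72 and -1.49 in PC14 and was not well above background on any PC14CDDP array, at least 19.4-fold lower. Among the 17 genes of the list that were tested, 0 were at least 2-fold higher and 2 at least 2-fold lower, SLC47A1 and ATP7B, close to the share over all genes.

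ABC transporters export drugs and glutathione conjugates. Of the 11 genes tested, 1 was at least 2-fold higher and 5 at least 2-fold lower (0 and 3 with normexp). ABCB1, which encodes P-glycoprotein, was the gene that rose, from 0 arrays well above background in PC14 to 4 in PC14CDDP, at least 2.30-fold, though its levels there, -4.66, -4.86, -5.31 and -5.36, stayed low. ABCC2, the conjugate exporter most often named in cisplatin resistance, had levels of -1.79, -2.30, -1.17 and -1.37 in PC14 and of -1.91, -2.48, -0.70 and -1.44 in PC14CDDP, which overlapped (difference 0.02 ± 0.17, SE, adjusted p = 0.93). Its close relatives ABCC3, ABCC6, ABCC4 and ABCC1 fell by 3.05, 2.81, 1.08 and 0.86, though 1 of the 3 other ABCC6 probes, at -0.54, did not pass the test. ABCC3 varied widely within PC14CDDP, from -6.88 to -3.54, and was well above background on 3 of the 4 arrays.

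Enzymes that use or make glutathione changed in both directions. Beside the rises of MGST1 and GSTT2, 6 of 16 glutathione transferases were at least 2-fold lower, 4 of them of the mu class. GSTM2 had levels of 1.14, 1.31, 0.45 and 0.88 in PC14 and of -1.87, -1.38, -2.31 and -1.18 in PC14CDDP, without overlap (6.19-fold lower, adjusted p = 9.2e-06). GSTM4, GSTM1 and GSTM3 fell by 2.54, 2.30 and 2.06, and since mu-class genes are close copies their probes may share transcripts. The pi-class enzyme GSTP1, the brightest of these genes in both lines, did not pass the test, at 7.95 ± 0.04 in PC14 and 7.81 ± 0.26 in PC14CDDP. In glutathione synthesis and recycling, 0 of 22 genes were at least 2-fold higher and 3 at least 2-fold lower. These were GCLC, the catalytic subunit of the rate-limiting enzyme, CBS of the transsulfuration pathway and the transpeptidase GGT5, which fell by 1.07, 2.21 and 4.37. Thioredoxin (TXN) and its reductase TXNRD1 rose by 0.95 and 0.89.

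NRF2, the factor that turns on antioxidant genes, had 24 target genes tested, of which 2 were called higher and 11 lower. Of 7 regulators of NRF2 4 were called higher and 1 lower, against 24.7% higher and 23.6% lower over all genes. AKR1B10, a reductase, fell by 2.94 but was well above background on only 1 PC14CDDP array, and its call was lost without the arrays of any transfection but LNA-miR-197 (adjusted p up to 0.0732). HMOX1, the heme oxygenase, fell by 1.31 (adjusted p = 0.0988 in the fit without the transfection as a block), and NQO1 did not pass the test (difference -0.41). Of 9 metallothioneins, small zinc and copper binding proteins that also bind platinum, 1 was called higher and 2 lower, none at least 2-fold, among them MT2A and MT1E at -0.41 and -0.70, whose calls were lost without the arrays of any transfection but AllStar-NC (adjusted p up to 0.102 and 0.114). Aldehyde dehydrogenases, which are used as markers of tumour cells with stem-like properties, gave 1 gene at least 2-fold higher and 1 at least 2-fold lower of 19 tested, with 3 called higher and 6 lower in all. The gene that was higher was ALDH1A2, which makes retinoic acid, with levels of -0.89, -0.59, -1.61 and -0.97 in PC14CDDP and not well above background on any PC14 array (at least 37.8-fold). ALDH1A1 differed by -0.37 and did not pass the test, while another of its probes, not well above background on any of the 8 arrays, differed by 0.54. ALDH1A3 differed by -0.59 (a call lost without the premiR-197 or the LNA-miR-NC arrays, with adjusted p up to 0.0779).

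**Figure D3:**
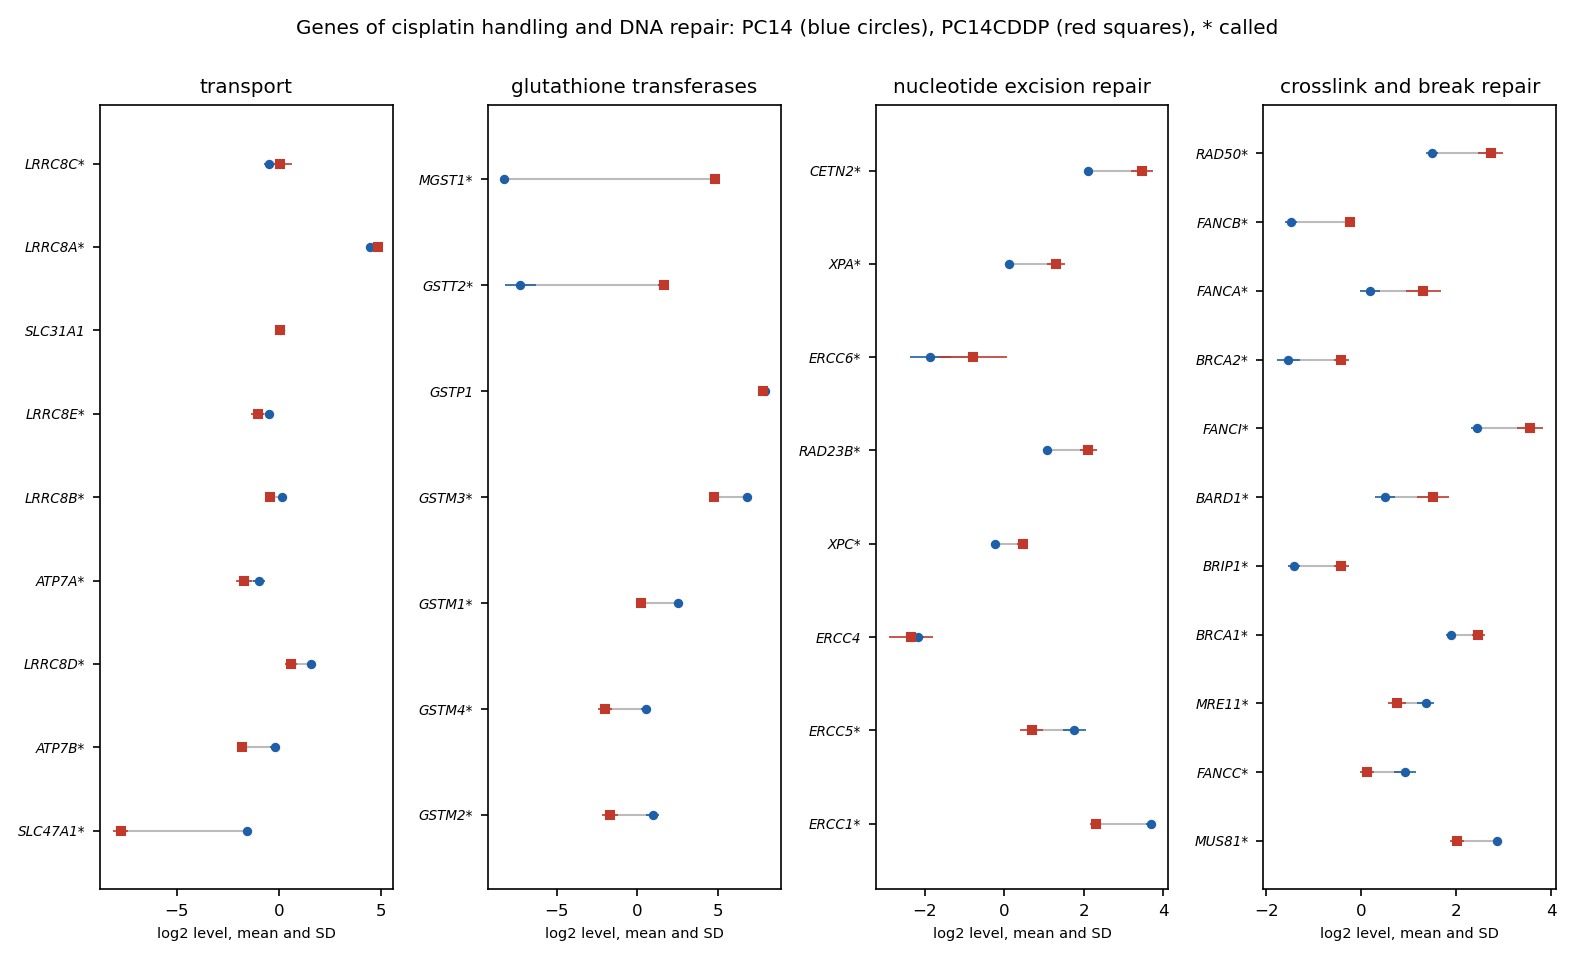
Mean level with SD over 4 arrays (horizontal axes, log2 signal relative to the 75th percentile) in PC14 (blue circles) and PC14CDDP (red squares) for the members named in the text of the lists of transport, glutathione transfer, nucleotide excision repair and crosslink repair, ordered by the difference of the brightest probe, with called genes starred. In the repair panels the lines lie close together, from ERCC1 at -1.38 to CETN2 at 1.35, while MGST1 at 13.10 and GSTT2, at least 224-fold higher, lie far apart in the panel of transferases.

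Among DNA repair genes small rises outnumbered falls. Of 34 genes of crosslink and double-strand break repair, 21 were called higher and 3 lower, against 24.7% higher and 23.6% lower over all genes, and 7 were at least 2-fold higher (4 with normexp) and 0 at least 2-fold lower. The median difference was 0.52. BRCA2, which loads recombinase onto DNA, had levels of -1.57, -1.79, -1.21 and -1.58 in PC14 and of -0.24, -0.56, -0.32 and -0.54 in PC14CDDP (2.18-fold, adjusted p = 0.00027). FANCB of the core complex, FANCI of the monoubiquitinated clamp, RAD50 of the end-resection complex, BARD1, the partner of BRCA1, and BRIP1, a helicase, were the other genes up at least 2-fold, with differences between 1.00 and 1.24. The last of the 7, FANCA of the core complex, has no settled direction, because its brightest probe rose by 1.12 while its other probes differed by -1.23 and 0.33, all called, and their mean by 0.07. BRCA1 rose by 0.59. The 3 genes that fell were MUS81, a nuclease subunit, FANCC and MRE11, by 0.84, 0.81 and 0.61. Another FANCC probe, well above background on every array of both lines, differed by -2.16 and was called lower. The count of 0 genes at least 2-fold lower therefore holds for the brightest probes only.

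In nucleotide excision repair 13 of 23 genes were called higher and 5 lower, with 4 and 2 of them at least 2-fold different, so that the share called lower was close to that over all genes. Damage recognition and verification genes were among the rises, with XPA at 1.20, CETN2 at 1.35, RAD23B at 1.03 and XPC at 0.70, as was ERCC6 of transcription-coupled repair at 1.08 (adjusted p = 0.0568 without the transfection block). ERCC1, the nuclease partner whose level has been studied as a marker of platinum response, went the other way, with levels of 3.61, 3.84, 3.61 and 3.69 in PC14 and of 2.35, 2.46, 2.13 and 2.29 in PC14CDDP. The groups did not overlap and the difference was 2.60-fold (adjusted p = 3.6e-06). The nuclease ERCC5 fell by 1.07, and ERCC4, the catalytic partner of ERCC1, did not pass the test with its brightest probe (difference -0.19) and rose by 0.49 with another. Mismatch repair gave 6 of 8 genes called higher and 0 lower, with the exonuclease EXO1 at 1.02, and translesion synthesis, which copies past adducts, gave 3 of 9 called higher and 1 lower.

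Genes of cell cycle arrest and apoptosis differed in both directions. CDKN1A, the p21 inhibitor of cyclin-dependent kinases, had levels of -5.23, -5.42, -4.33 and -4.42 in PC14 and of -2.20, -2.95, -1.68 and -3.25 in PC14CDDP, 5.02-fold higher (adjusted p = 0.00035) but low in both lines. GDF15, a secreted stress cytokine, fell by 2.93, from levels between -0.42 and 0.25 in PC14 to -3.45, -3.70, -1.28 and -3.32 in PC14CDDP. The proapoptotic gene BAX did not pass the test with its brightest probe (-0.23) and rose by 0.56 with another. In the BCL2 family, 3 of 11 proapoptotic genes were at least 2-fold lower, BIK, BAK1 and HRK, which fell by 2.45, 1.33 and 1.22. The proapoptotic gene BMF was at least 2-fold higher (2.14), though a second BMF probe at 0.40 did not pass the test. Of 11 antiapoptotic genes, 1 was at least 2-fold lower and 0 at least 2-fold higher, and the lowest difference was -1.17. Among them 5 were called higher and 2 lower, against 24.7% and 23.6% over all genes. The antiapoptotic genes BCL2L1 and MCL1 differed by 0.67 and 0.66, calls lost without the AllStar-NC or the LNA-miR-NC arrays and, for MCL1, without the premiR-197 arrays (adjusted p up to 0.0741 and 0.212).

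Genes of the cell cycle were called higher more often than lower. For comparison with the counts here, 24.7% of all genes were called higher and 23.6% lower. Among 15 G1 cyclins, kinases and their partners, 10 were called higher and 0 lower, while among 9 G1 inhibitors 2 were called higher and 5 lower. CCND2, cyclin D2, was not well above background on any PC14 array and had levels of -1.37, -0.23, -1.51 and -0.80 in PC14CDDP, at least 38.7-fold higher. The phosphatase CDC25A and the kinase CDK4 rose by 1.46 and 0.97. Of 30 replication genes 17 were called higher and 4 lower, RRM2 of ribonucleotide reductase with the largest rise (1.20) and the flap nuclease FEN1 with the largest fall (-1.01). Of 30 mitotic genes 13 were called higher and 4 lower, 0 of them by 2-fold, and the proliferation marker MKI67 did not pass the test (difference 0.18).

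Epithelial junction genes fell by 2-fold more often than they rose. Of 35 genes, 2 were at least 2-fold higher and 12 at least 2-fold lower (1 and 6 with normexp), and the median difference was -0.56. Falls of 2-fold outnumbered rises over all genes too, with 6.43% at least 2-fold higher and 10.4% lower. Beside CLDN4 and CLDN3, the desmosomal plaque protein DSP had levels of 4.04, 4.01, 3.84 and 3.91 in PC14 and of 0.26, 0.15, -0.07 and 0.11 in PC14CDDP, without overlap (14.3-fold, adjusted p = 1.9e-07). The tricellular junction receptor LSR, plakoglobin (JUP) and the plakophilin PKP3 fell by 2.14, 1.31 and 1.55, and SPINT2, an inhibitor of epithelial serine proteases, by 3.31. CDH1 was at least 1.22-fold lower and EPCAM at least 1.50-fold lower, bounds that reflect their low level in PC14. Their differences, -2.3 and -2.2, passed the 2-fold limit but the bounds did not, and with normexp neither was called (adjusted p = 0.0947 and 0.136). The tight junction genes CLDN7, TJP1 and F11R did not pass the test (F11R -0.12, with another probe at 0.08). The splicing factors ESRP1 and ESRP2 of epithelial cells did not pass it either.

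Mesenchymal genes differed in both directions, with more 2-fold rises than falls. Of 26 tested, 9 were at least 2-fold higher and 5 at least 2-fold lower (8 and 2 with normexp). Over all 24839 genes 6.43% were at least 2-fold higher and 10.4% lower (916 and 1240 genes with normexp). Of 10 regulators in the list, 4 were at least 2-fold higher and 1 lower. CDH2, N-cadherin, had levels of -3.37, -3.79, -3.65 and -3.36 in PC14 and of 1.00, 0.91, 0.54 and 0.67 in PC14CDDP, 20.0-fold higher without overlap (adjusted p = 4.6e-07). ZEB2, a repressor of epithelial genes, was not well above background on any PC14 array and had levels of -2.12, -2.22, -2.32 and -2.48 in PC14CDDP, at least 15.6-fold higher. TNC, the matrix protein tenascin C, was well above background on 1 PC14 array and had levels of 0.79, 0.58, -0.76 and 0.19 in PC14CDDP (94.8-fold). Other regulators of the transition, TWIST1, SNAI1 and TWIST2, rose by 1.65, 1.24 and 1.22. ZEB1 did not pass the test with its brightest probe (0.39) but was called with another (0.40). The matrix gene SPARC rose by 3.21 and the crosslinking oxidase LOX was at least 4.51-fold higher. In the other direction S100A4 and the collagen COL6A1 fell by 8.40 and 2.59 and the gelatinase MMP2 was at least 3.29-fold lower. Vimentin (VIM), the intermediate filament of mesenchymal cells, was bright in both lines and was not called (8.07 ± 0.12 and 8.18 ± 0.19, SD, n = 4).

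Promoters of junction genes were searched for the E-box CAGGTG and its reverse complement CACCTG, the letters that repressors of the SNAI and ZEB families bind. In the 250 bases before the start of transcription, from RefSeq (GRCh38.p14, 1 start per gene), 17.5% of 27305 promoters held a match. Of the 35 epithelial genes 22 had a promoter in the table and 8 of these held a match (36.4%), with the same share, 4 of 11 each, among genes that were called lower and among those that were not. CLDN4, CLDN3 and LSR had no match in this window. The windows of DSP and of the epithelial transcription factor ELF3, which fell by 3.42 and was well above background on 1 PC14CDDP array, are shown as examples of genes that fell and hold the letters, with matches in capitals. They lie on the plus strand at chr6:7541421-7541670 and chr1:202010337-202010586.
DSP: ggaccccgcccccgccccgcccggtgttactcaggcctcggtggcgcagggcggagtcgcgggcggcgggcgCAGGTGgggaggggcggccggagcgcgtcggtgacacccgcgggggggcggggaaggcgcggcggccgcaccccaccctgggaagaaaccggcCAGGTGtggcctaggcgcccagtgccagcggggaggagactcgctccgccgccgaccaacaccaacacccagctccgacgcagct
ELF3: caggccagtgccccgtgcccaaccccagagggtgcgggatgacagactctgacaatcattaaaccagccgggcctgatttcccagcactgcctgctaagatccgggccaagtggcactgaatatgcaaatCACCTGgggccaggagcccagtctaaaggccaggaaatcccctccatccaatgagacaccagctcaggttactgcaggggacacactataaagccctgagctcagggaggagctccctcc

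Contacts with the matrix differed gene by gene. Of 28 integrins and laminins, 5 were at least 2-fold higher and 7 at least 2-fold lower. ITGB5, ITGA2 and ITGB4, the last the integrin of hemidesmosomes, fell by 3.77, 3.03 and 2.38 with the laminin chains LAMA3 and LAMC3, by 3.05 and 3.95, LAMA3 by only 0.62 with another probe. ITGA4 and ITGB3 rose by 3.02 and 1.81, and LAMB3, ITGA3 and LAMA1 were the other genes at least 2-fold higher, LAMA1 by at least 2.07-fold. Of 28 genes of proteases and their inhibitors, 4 were at least 2-fold higher and 10 lower. The urokinase PLAU and its receptor PLAUR fell by 1.07 and 1.18, the cathepsin CTSB by 2.04, the inhibitor SERPINE2 by 2.79, and TFPI, an inhibitor of coagulation, was at least 9.11-fold lower, while the aggrecanase ADAMTS1 was at least 10.0-fold higher and the plasminogen activator PLAT rose by 1.81. In keratins, the stress keratins KRT6A, KRT6B and KRT6C, near-identical copies whose probes may share transcripts, were higher (KRT6A 10.2-fold, the others at least 7.38-fold and 8.19-fold) and KRT19 fell by 2.13.

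Genes of hypoxia and glycolysis were lower as a group. Of 36 tested, 22 were called lower and 2 higher, against 23.6% lower and 24.7% higher over all genes. Among them 15 were at least 2-fold lower and 0 at least 2-fold higher, and the median difference was -0.70. The oxygen-regulated factor HIF1A had levels of 3.77, 3.70, 3.11 and 3.57 in PC14 and of 1.91, 1.97, 1.96 and 1.88 in PC14CDDP, without overlap (3.05-fold lower, adjusted p = 2.2e-05). EPAS1, which encodes HIF2 alpha, had levels of 5.49, 5.12, 4.82 and 4.87 in PC14 and of 3.40, 3.49, 3.21 and 3.14 in PC14CDDP (3.40-fold lower). EGLN3, an oxygen sensor that hypoxia itself induces, had levels of -0.36, 0.55, -0.97 and -0.01 in PC14 and was not well above background on any PC14CDDP array, at least 50.2-fold lower. Of secreted products, adrenomedullin (ADM), ANGPTL4 and VEGFA fell by 2.69, 2.44 and 1.92.

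The glucose transporter SLC2A1 had levels of 3.96, 3.87, 3.22 and 3.81 in PC14 and of 0.90, 1.67, 0.08 and 1.15 in PC14CDDP, 6.80-fold lower (adjusted p = 9.1e-06). Another SLC2A1 probe, also measured on all 8 arrays, differed by 0.22 and did not pass the test. SLC2A3 and aldolase C (ALDOC) fell by 2.01 and 2.17, and PGK1 and LDHA, enzymes of the last steps of glycolysis, by 1.18 and 0.71. The glycolytic genes GAPDH, PKM and ENO1 did not pass the test (differences between -0.19 and -0.06), and PFKM rose by 0.60. The hypoxia marker CA9 was not well above background in either line.

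In promoters of the same genes the letters ACGTG or CACGT, the core that HIF factors bind, occurred in 14 of 32 (43.8%), against 18.7% of all promoters and 22.2% of the 13208 promoters of tested genes. They were in 9 of 19 genes called lower (47.4%) and in 5 of 13 others (38.5%), and absent from the windows of EGLN3, ADM and SLC2A1. LDHA, with 3 stretches, and PGK1, with 2, are shown as genes that fell and hold the letters more than once. Both are on the plus strand, at chr11:18394313-18394562 and chrX:78103998-78104247, and a CACGTG holds the core on both strands.
LDHA: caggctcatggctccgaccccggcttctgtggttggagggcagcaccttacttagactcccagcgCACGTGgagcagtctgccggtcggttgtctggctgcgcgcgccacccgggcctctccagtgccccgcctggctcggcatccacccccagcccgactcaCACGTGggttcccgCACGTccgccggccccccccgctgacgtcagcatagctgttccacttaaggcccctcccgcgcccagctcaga
PGK1: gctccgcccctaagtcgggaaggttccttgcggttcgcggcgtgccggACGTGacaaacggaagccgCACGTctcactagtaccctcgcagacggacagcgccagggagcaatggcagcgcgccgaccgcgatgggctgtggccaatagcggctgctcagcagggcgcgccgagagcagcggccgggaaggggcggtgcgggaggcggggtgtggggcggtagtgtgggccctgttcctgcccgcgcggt

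Other metabolic and stress genes were lower more often than higher, where the shares over all genes were 23.6% lower and 24.7% higher. In sterol and fatty acid synthesis, 14 of 29 genes were called lower and 6 higher, 5 of them at least 2-fold lower and 0 at least 2-fold higher. The desaturase SCD fell by 2.60 and SREBF2, the factor that drives cholesterol synthesis, by 1.30. Of 23 genes of the endoplasmic reticulum and ATF4 stress responses, 10 were called lower and 3 higher. DDIT4, an inhibitor of mTORC1 that hypoxia also induces, fell by 3.81, and the chaperones HYOU1 and CRELD2 fell by 1.04 and 1.22, while DDIT3 (CHOP) rose by 1.83 (adjusted p = 0.0799 without the transfection block) and HSPA5, the main chaperone, did not pass the test.

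Immune genes included large single rises. CD274, which encodes the checkpoint ligand PD-L1, had levels of -4.90, -4.75, -3.51 and -4.82 in PC14 and of -2.51, -1.97, -0.42 and -1.95 in PC14CDDP. The groups did not overlap, and the difference was 6.88-fold (adjusted p = 2.8e-05). The LNA-miR-197 culture was the highest of the 4 in each line. By flow cytometry, the study reported more PD-L1 protein in PC14CDDP than in PC14. Of 16 checkpoint ligands, 2 were at least 2-fold higher, CD274 and the CD27 ligand CD70, and 3 at least 2-fold lower, the galectin LGALS3, the costimulatory ligand CD86 and TNFSF4. The CD70 difference, 1.10, was no longer called without the AllStar-NC or the LNA-miR-NC arrays (adjusted p up to 0.106). PSMB8, a subunit of the immunoproteasome, rose 54.0-fold, from levels of -5.92, -5.44, -5.91 and -5.55 to -0.31, 0.36, -0.16 and 0.30, with PSMB9 and the peptidase ERAP2 at 1.44 and 1.26. The class I heavy chains HLA-B and HLA-C did not pass the test (HLA-C -0.19, with another probe at 0.03).

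Interferon-stimulated genes differed in both directions. Of 37 tested, 7 were at least 2-fold higher and 6 at least 2-fold lower (3 and 4 with normexp). The shares over all genes were 6.43% and 10.4%. The neighbouring antiviral genes SAMD9L and SAMD9 were at least 27.2-fold and 2.07-fold higher, the guanylate-binding proteins GBP3 and GBP1 at least 25.2-fold and 2.85-fold higher, and HERC5 rose by 1.79. IFITM2, PARP9, IFIT1 and the signalling factor IRF9 fell by 1.54, 1.51, 1.41 and 1.29, the IFIT1 call being lost without the LNA-miR-NC or the premiR-197 arrays (adjusted p up to 0.0852). Another PARP9 probe, at -0.54, did not pass the test. Cytokines were split in the same way. The neutrophil factor CSF3 was at least 6.22-fold higher and the chemokines CXCL2 and CXCL1 rose by 2.53 and 1.77, while IL6 was at least 4.34-fold, CXCL8 at least 2.39-fold and IL18 at least 2.23-fold lower.

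Genes that link miR-197 to CKS1B, STAT3 and PD-L1 in the study were also read across the lines. The study draws the link through phosphorylated STAT3 protein, without a remarkable effect on total STAT3. It also reports a luciferase construct with the PD-L1 promoter, whose activity fell with STAT3 siRNA and rose with LNA-miR-197. Its results for Bcl-2, c-Myc and cyclin D1 are protein levels after LNA-miR-197 within PC14CDDP. Messenger RNA compared between the lines is a different measure and contrast, so it does not test that link. CKS1B, a small subunit of cyclin-dependent kinase complexes, had levels of 5.82, 6.03, 6.18 and 6.10 in PC14 and of 6.63, 7.02, 7.05 and 6.87 in PC14CDDP, 1.82-fold higher (adjusted p = 7.3e-05). STAT3, the transcription factor downstream of interleukin 6, had levels of 0.51, 0.36, 0.37 and 0.15 in PC14 and of 0.09, -0.31, -0.54 and -0.36 in PC14CDDP, 1.55-fold lower (adjusted p = 0.0096). Every PC14CDDP array lay below every PC14 array for STAT3 and above for CKS1B, but the adjusted p of STAT3 was 0.0524 without the AllStar-NC arrays. Of the STAT3 targets the study names, MYC did not pass the test (0.15), BCL2 neither with its brightest probe (0.00 ± 0.18, SE) but with another (-0.64), and CCND1 differed by 0.38, a call lost without the AllStar-NC or the LNA-miR-NC arrays (adjusted p up to 0.0699) and without the transfection block (0.0785). The other genes that the study reports as direct targets of the microRNA, from luciferase assays, are CTNND1, ERLIN2 and CEP55. They differed between the lines by -0.65, -0.57 and -0.42. Without the transfection block CTNND1 and ERLIN2 were not called (adjusted p = 0.175 and 0.28), the mean of the ERLIN2 probes was 0.08, another CEP55 probe was at 0.02, and the CEP55 call was lost without the LNA-miR-197 or the LNA-miR-NC arrays (adjusted p up to 0.0853). Of 16 receptors and signalling genes around STAT3, 3 were called higher and 7 lower, and of 16 target genes of STAT3 in the list 7 were called higher and 3 lower. Together, 10 of the 32 genes were called higher and 10 lower, with a median difference of 0.02, against 24.7% higher and 23.6% lower over all genes. The receptor chain OSMR fell by 2.24, or by 0.78 with another probe, and among the targets the feedback inhibitor SOCS1 rose by 2.50.

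Growth factor and developmental genes added to the differences. Among 16 receptor tyrosine kinases 0 were at least 2-fold higher and 4 at least 2-fold lower, FGFR3, RET, AXL and IGF1R, which fell by 1.80, 1.69, 1.16 and 1.04. MET did not pass the test, nor did another FGFR3 probe, at -0.47. EGFR did not pass it with its brightest probe (-0.01) but fell by 1.97 and 0.80 with its other probes. The KIT ligand KITLG was at least 6.78-fold higher and IGF2 fell by 2.61. In the WNT and TGF-beta lists, LEF1 rose by 4.68, with levels of -2.41, -2.02, -2.90 and -2.59 in PC14 and of 2.42, 2.39, 1.98 and 2.03 in PC14CDDP, and WNT7A (1.76) and CCN2 (2.17) rose too, CCN2 with an adjusted p of 0.0552 without the transfection block. BMP7 fell by 5.43 and WNT11 was at least 9.75-fold lower. Of 33 HOX genes, which set positional identity, 13 were at least 2-fold higher and 4 at least 2-fold lower (7 and 1 with normexp). HOXB3 to HOXB9 of the HOXB cluster rose by 1.17 to 2.15, HOXD9, HOXD10 and HOXD11 by at least 1.49 each, and HOXC4 and HOXC10 fell by 3.61 and 1.40.

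Genes that differed were also grouped by position. Coordinates are those of the array files on hg19, and windows of 5 Mb with at least 10 tested genes were counted, 547 in all. At least 50% of genes were called lower in 31 windows and higher in 42 windows, against 23.6% and 24.7% over all genes. The highest share of lower genes was on chromosome 14 between 30 and 35 Mb, with 18 of 22 genes (81.8%) and a median difference of -1.08, among them EGLN3, the kinase PRKD1 and COCH. Next came chromosome 13 between 100 and 105 Mb (77.8%), with CLYBL, GGACT, POGLUT2 and ERCC5, chromosome 1 between 110 and 115 Mb (70.9%), with the GSTM genes, SYPL2, WNT2B and DENND2D, chromosome 22 between 40 and 45 Mb (66.7%), with BIK, SREBF2, PNPLA3 and SERHL2, and chromosome 13 between 95 and 100 Mb (65.5%), with ABCC4, MBNL2, CLDN10 and RAP2A.

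Windows with the highest shares of higher genes lay on chromosome X between 125 and 130 Mb (64.7%), with APLN and ELF4, chromosome 13 between 105 and 110 Mb (63.6%), with NALF1, LINC00460 and EFNB2, chromosome 12 between 40 and 45 Mb (62.5%), with NELL2 and PRICKLE1, chromosome 4 between 145 and 150 Mb (61.5%), with ARHGAP10 and NR3C2, and, both at 60.0%, chromosome 9 between 85 and 90 Mb, with QNG1, KIF27 and RMI1, and chromosome 6 between 115 and 120 Mb, with MAN1A1 and DSE. On chromosome 13 the median was -1.17 in the window before 105 Mb and 1.35 between 105 and 110 Mb, where 7 of only 11 tested genes were called higher. This did not continue between 110 and 115 Mb, where the median of 59 genes was -0.05, with 23.7% called higher and 30.5% lower. Over whole chromosomes, 22 had the largest share of lower genes (45.7%) and 4 the largest share of higher genes (37.0%).

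Several segments were chosen after the windows were seen. On chromosome 1, 151 of 256 genes between 90 and 120 Mb were called lower and 14 higher, with a median of -0.66, whereas between 140 and 250 Mb 422 of 1089 were called higher and 137 lower, with a median of 0.24. The locus of miR-197 lies in the first of these segments. Of the 10 tested genes nearest to it in the RefSeq order, 5 on each side, 9 were called lower, 7 of them at least 2-fold, and 0 higher. Over all genes 23.6% were called lower and 10.4% were at least 2-fold lower, but between 110 and 115 Mb the share called lower was 70.9%. The 7 include GSTM1, GSTM2 and GSTM4, whose probes may share transcripts, and GNAT2, not well above background on any PC14CDDP array. The synaptophysin-like gene SYPL2 fell by 4.39, the cell adhesion gene AMIGO1 by 2.47, the deaminase AMPD2 by 1.27 and the G protein subunit GNAI3 by 0.55. The microRNA itself was not measured on these arrays, but the study reported a lower level of it in PC14CDDP than in PC14 by quantitative PCR. Of the 823 list genes that were tested, 41 lay in the 31 windows where at least 50% of genes were called lower, and 29 of these were called lower, as were 785 of all 1341 genes there, since the windows were chosen for lower calls. ERCC5, ABCC4, ATP7A, BIK, HMOX1, EGLN3, PGK1, SREBF2 and the GSTM genes named above were among the 29. Copy number was not measured here, and whether it differs in these segments was not tested.

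**Figure D4:**
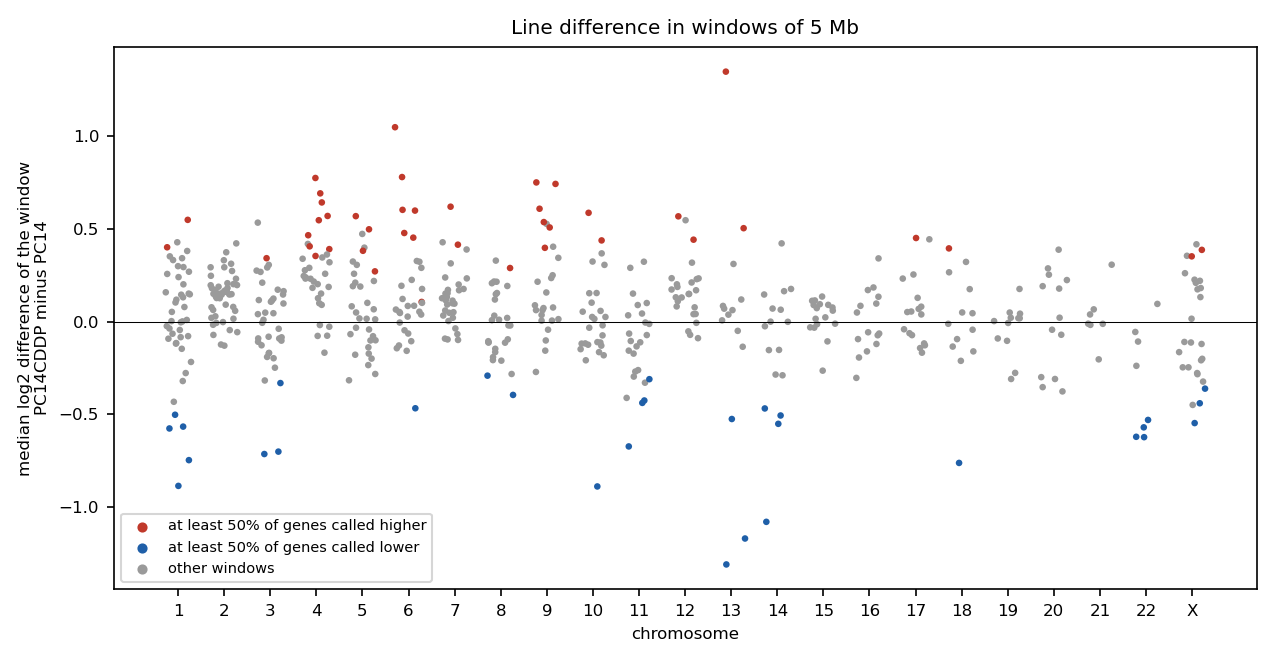
Median difference between the lines (vertical axis, log2, PC14CDDP minus PC14) of each of the 547 windows of 5 Mb, by chromosome, with windows in which at least 50% of tested genes were called in 1 direction in colour. The 3 lowest medians are on chromosomes 13 and 14, and chromosome 13 holds windows on both sides, from -1.31 to 1.35.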

How the data were processed

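Total RNA of 12 transfected cultures was hybridised to 12 Agilent 1-colour expression arrays, of which the 8 of PC14 and PC14CDDP are compared here. Scans were read by the authors in Agilent Feature Extraction 10.7.3.1 per the file headers. The deposited values used are background-subtracted processed intensities on a linear scale, with flags for spots well above background. A deposited series table, whose intensities equal the processed signal of every spot, served as an alternative, so no further scaling or centring was found in it. Normalization beyond this is not given in the sources used here.

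Control spots and spots flagged as outliers were left out, spots of 1 probe were averaged, and log2 values were computed here from the deposited intensities and centred on each array's 75th percentile. Probes well above background on at least 3 of 12 arrays were kept (33714), and the brightest stood for each of 24839 genes. Gene names are those of the array files, updated through RefSeq accessions for 28353 of 50599 probes. Tests used limma 3.58.1 in R 4.3.3 (lmFit and eBayes on line and transfection, all 12 arrays, 6 residual degrees of freedom) with Benjamini-Hochberg adjustment over all genes and a threshold of 0.05. A549 shares that estimate of the spread and lay on the other slide. The transfection is a block because like transfections share a number and a slide column, and the deviations of like-transfected PC14 and PC14CDDP arrays from their line means correlated with r of 0.383 to 0.502. Replicates are cultures with different transfections, so a difference between lines that depends on the transfection was not tested. Where no array of 1 line had the probe well above background, "at least" folds were computed against the lowest signal well above background on each array. In simulated data 72 of 100 genes changed by 1 log2 unit and 93 of 100 changed by 2 were recovered for PC14CDDP against PC14, over 24839 genes. There 13 unchanged genes were also called. Only 200 genes were changed in the simulation, against 11997 called in the data, so the share recovered may differ between them.

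Named genes were the 12 largest rises and falls measured on all 8 arrays with the same sign in all 4 pairs, the 6 with the largest bounds each way among genes measured in 1 line only, up to 4 called members each way of each list plus defining members, the genes the study names, and up to 4 genes of each of the leading windows. Genes were also named beyond that rule, after their values were seen, where a group needed them, and results for some genes are not reported here. The lists, members and rule were chosen with earlier results of these data known. The alternatives tried were normexp background correction (offset 50), the deposited table, quantile normalization, other filters on dim probes, the mean of the probes of a gene, the 8 arrays alone, no transfection block, the methods' t-test (two-sided, 4 against 4), a trended and robust eBayes prior, and each transfection or array left out. For arrays, their number limits the precision. Figures and tables were made with Python 3.11.15, pandas 2.3.3, numpy 2.4.6 and matplotlib 3.10.9.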

Additional observations from a re-analysis of the deposited data

Results flagged for a closer look

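For the 267 genes named above, the 4 arrays of each line were searched for an array far from the others, by the gap to the nearest array over the range of the 4 (Dixon's 95% critical value). Chance flags about 1 in 20 sets, and 39 of 534 sets (7.30%) held such an array. Of these, 24 were LNA-miR-197 cultures. All values are log2 levels as above.

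In PC14 the LNA-miR-197 array stood apart for 9 genes, namely AKR1B10 (-3.95), BAK1 (3.91), CBS (3.41), CD274 (-3.51), CDC25A (1.22), GAPDH (7.69), LDHA (6.72), LGALS3 (3.99) and ZNF462 (-6.45). CD274, which encodes PD-L1, lay between -4.90 and -4.75 on the other PC14 arrays. In PC14CDDP the LNA-miR-197 array stood apart for 15 genes, namely BAX (0.79), DDIT3 (2.83), ERCC4 (-3.17), ERCC6 (0.51), GDF15 (-1.28), GGACT (-4.75), GGT5 (-1.76), HOXD10 (-0.13), HOXD9 (-2.54), KRT18 (7.23), LRRC8E (-0.57), MT1E (3.65), NQO1 (0.12), NR3C2 (-5.94) and STAT6 (0.73). GDF15 lay between -3.70 and -3.32 on the other PC14CDDP arrays, and STAT6 between 1.75 and 1.92. Whether these values come from blocking the microRNA or from the single culture and array was not tested.

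The premiR-197 array stood apart in PC14 for CXCL1 (-3.60), ERLIN2 (-1.69), FANCB (-1.29), GNAI3 (1.83) and PNPLA3 (-0.01), and in PC14CDDP for SYPL2 (-2.49). The LNA-miR-NC array stood apart in PC14 for BCL2 (-2.16) and MUS81 (2.74), and in PC14CDDP for LRRC8A (4.71) and for EPCAM (-6.23), FBLN2 (-8.26), LAMP3 (-8.05), PNMA8A (-8.40), TNFSF4 (-4.98) and WNT11 (-8.05). EPCAM, FBLN2, LAMP3, PNMA8A and WNT11 were not well above background on any PC14CDDP array, and TNFSF4 was on 1.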

How the results depend on the processing

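The count of called genes, 11997, was between 9407 and 11380 when 1 transfection or 1 array was left out, and that of genes at least 2-fold different, 4171, between 4061 and 4255. With the methods' t-test and Benjamini-Hochberg adjustment 7981 genes were called, and 10563 had an unadjusted p under 0.05, and 18 of the 267 named genes lost their call, among them HRK and IGF1R, for which no other loss is given above. With normexp 4 named genes lost it (CD70, CDH1, EPCAM and NKX2-1). Genes at least 2-fold different numbered 2156 with normexp, of which 2146 were among the 4171, and 2709 where only probes well above background on all 8 arrays were tested, which tests fewer genes (19148). Without the transfection block 9361 genes were called and 4003 were at least 2-fold different, and 9 of the 267 genes named lost their call, those where this is said above and LRRC8C and MT2A. With quantile normalization, no filter, the mean of probes, the 8 arrays alone, the deposited table and the trend and robust prior, 11810 to 13505 genes were called. The share of calls that were higher was 51.2%, and 49.3% to 58.5% under the alternatives, 57.5% with normexp. ERLIN2 changed sign, from -0.57 to 0.080 with the mean of its probes. Of 3080 counts of list members under the alternatives, 243 moved by over 1.5 times, most of them from a count under 6. Other probes existed for 81 of the named genes, and 92 of 105 had the sign of the brightest probe, against 91.2% of the other probes of all genes at least 2-fold different. Probes near background give compressed differences or bounds only, and no cause of these changes was tested.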
